A study of Schizosaccharomyces pombe with 36 samples.

Results

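The 2 ends of Schizosaccharomyces pombe chromosome III carry the ribosomal DNA (rDNA), tandem repeats that encode the 18S, 5.8S and 28S ribosomal RNAs and lie outside the unique sequence on both arms. The region described here is the sequence beside those repeats, 70 kb on each arm. On the left arm it runs from 32 bins of rDNA inward to position 84900, and on the right arm from position 2369701 outward to 2 bins of rDNA. It was chosen by position and not by any measured value, and it holds 467 of the 41908 bins of 300 bp. Coordinates and genes are those of RefSeq ASM294v3; whether the submitters used that build was not stated. On it the rDNA reaches to position 24601 on the left and starts at 2439300 on the right.

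The data are polymerase usage sequencing (Pu-seq), which maps ribonucleotides left in DNA by a mutant replicative polymerase. DNA polymerase delta (Pol delta, cdc6) makes mostly the lagging strand and DNA polymerase epsilon (Pol epsilon, cdc20) mostly the leading strand, so the strand on which breaks lie shows the direction in which a fork moved. All strains carried a deleted rnh201 gene or the allele listed as rnh201-RED; Rnh201 is the catalytic subunit of RNase H2, which starts the removal of such ribonucleotides. There were 36 libraries in 9 conditions, with 2 libraries for each polymerase in every condition.

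Wild type strains (h-) carried cdc6-L591G or cdc20-M630F with ura4-D18, ade6-704, leu1-32 and rnh201-RED:kan, and were grown at 25 °C or 34 °C. The rif1 deletion strains had the ade6-704, ura4-D18 and leu1-32 alleles too, with rnh201::kan in place of rnh201-RED and with rif1::BSD, at both temperatures. The stn1-226 strains (a temperature-sensitive allele) had an rnh201 deletion marked hphNT1, the polymerase allele between lox sites (cdc6-I591G as the labels spell it, or cdc20-M630F), leu1-32 and ura4-, at both temperatures. The stn1-226 rif1 deletion strains had the same background with a rif1 deletion added. The taz1 deletion strains had the wild type background with taz1::NAT, and no temperature is given for them. Comparisons with wild type other than that of taz1 deletion thus also compare backgrounds, and those of rif1 deletion, stn1-226 and taz1 deletion share their wild type libraries. The labels list 1 strain for each genotype and polymerase, used at both temperatures, and do not say that replicates were separate cultures. P-values measure the spread between these libraries, which may be technical.

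Rif1 is known in fission yeast to hold back late origins, Stn1 acts with Ten1 in the synthesis of the complementary strand at telomeres, and Taz1 binds double-stranded telomeric repeats. The chromosome III ends differ from those of chromosomes I and II in that rDNA stands between the unique sequence and the telomere. Each rDNA repeat is known to hold an origin and a barrier that stops forks moving against rRNA transcription.

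The libraries held 2211932 to 25777570 fragment ends and a median bin held 39 to 575. Every one of the 467 bins had a mean of at least 10 ends and at least 1 end in all 32 libraries without taz1 deletion. The taz1 deletion files covered 227 of the 467 bins, the part farther from the rDNA. The rif1 gene had a level of 0.018 ± 0.016 (SD, n = 4) of the library's median bin in rif1 deletion at 25 °C and a level of 0.012 ± 0.0076 at 34 °C. In the 4 taz1 deletion libraries taz1 was at 0. Libraries labelled stn1-226 rif1 deletion had rif1 at 1.10 ± 0.12 (25 °C) and 1.09 ± 0.083 (34 °C), as strains with the gene do, which goes against that label. Both wild type 25 °C replicate 2 libraries, labelled ura4-D18, had ends over ura4 (levels 1.27 and 0.295), against 0.0020 and 0.0025 in replicate 1. Results that rest on these libraries were also computed without them. Lower levels over ura4 were found in wild type 34 °C replicate 2 (0.103 and 0.0349, against 0.0010 and 0 in replicate 1). In rif1 deletion 34 °C replicate 2 they were 0.0263 and 0.0115, against 0 in replicate 1. These 34 °C libraries were left out only singly. Replicate 1, replicate 2 and taz1 deletion libraries were counted on references of different length, so the fit held the replicate number as a covariate. This does not cover taz1 deletion, which was compared with wild type libraries counted on other references.

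The region has 4 kinds of bin. On the left, 32 bins are rDNA, 21 belong to a block that is repeated in inverted orientation on the other arm, 7 hold other repeated sequence and 173 are distinct. On the right, 2 are rDNA, 20 belong to the block, 6 are other repeats and 206 are distinct. The inverted block spans 24639 to 30908 on the left and 2433206 to 2439475 on the right, 6270 bp with 12 bases unlike (99.81% alike), so reads there cannot be assigned to one arm.

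The annotated genes nearest the rDNA on the left are the 28S rRNA gene SPRRNA.48 (16927 to 20411), the 5.8S rRNA gene SPRRNA.51 (20712 to 20876) and the 18S rRNA gene SPRRNA.44 (21289 to 23130), all on the minus strand, then SPCP20C8.01C (28298 to 29423) and SPCP20C8.02C (30561 to 31520), which encode uncharacterized proteins. On the right they are SPCC569.01C (2434691 to 2436530), SPCC569.02C (2432612 to 2433520) and SPCC569.03 (2429987 to 2431451), also of unknown function, the spermidine family transporter gene SPCC569.05C (2423784 to 2427995) and SPCC569.04 (2427078 to 2427584). The region holds 20 protein-coding genes on the left and 29 on the right, with 41 and 46 lncRNA genes.

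Replication is known to start in fission yeast at A- and T-rich intergenic sequence. The bins at the site of each arm with the highest mean initiation step in wild type, among sites with no rDNA nearby (described with the other sites below), are shown for that reason, plus strand, with runs of at least 12 A or T bases in capitals. The left one is chromosome III 76501 to 76800, which lies 375 bp from the dipeptide transporter gene SPCC757.13. The right one is chromosome III 2382301 to 2382600, which overlaps vms1, whose product is a Cdc48 cofactor.
Left site: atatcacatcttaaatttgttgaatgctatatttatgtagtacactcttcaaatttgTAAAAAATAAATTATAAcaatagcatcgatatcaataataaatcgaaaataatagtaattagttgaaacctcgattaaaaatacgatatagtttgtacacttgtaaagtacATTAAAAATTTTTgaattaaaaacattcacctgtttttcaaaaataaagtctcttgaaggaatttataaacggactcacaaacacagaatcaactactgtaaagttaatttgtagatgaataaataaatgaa
Right site: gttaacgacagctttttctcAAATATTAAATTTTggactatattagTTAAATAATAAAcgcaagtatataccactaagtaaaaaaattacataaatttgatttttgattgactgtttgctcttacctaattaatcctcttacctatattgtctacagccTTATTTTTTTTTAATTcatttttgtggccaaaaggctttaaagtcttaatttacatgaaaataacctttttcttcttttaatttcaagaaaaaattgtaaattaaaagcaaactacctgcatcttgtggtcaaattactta
The left bin is 77% A and T with 2 such runs, the longest 17 bases, and the right bin is 75% with 3 runs, the longest 16. Such runs occur in 48.61% of the bins of the region and in 41.53% of all bins. The hexamer GGTTAC, the core of the fission yeast telomeric repeat, was searched on both strands and occurs in 38 bins of the region (8.14%) and in 7.26% of all bins. The median A and T content was 65.33% in the region and 64% over all bins.

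Fork direction is a log2 ratio, in which ends left by outward forks (those heading for the chromosome end) are divided by ends left by inward forks (those heading for the centromere). It was computed in windows of 3 kb numbered from the outside in, L1 to L23 and R1 to R23. L1 to L3 are wholly rDNA, and L4 (24001 to 27000) and R1 (from 2436901) each hold 2 rDNA bins, with 56.3 to 97.2% and 53.4 to 89.4% of the ends of the window in wild type. Direction beside the rDNA is therefore given for the other 8 bins of L4 and R1, which lie in the inverted block, so that both windows read largely the same sequence and their reads cannot be assigned to one arm. In wild type these bins were outward on both arms. L4 had a direction of 1.93, 1.59, 2.15 and 2.08 at 25 °C (Pol delta replicates 1 and 2, then Pol epsilon replicates 1 and 2, as in all lists of 4 below) and 1.69, 1.94, 2.35 and 2.30 at 34 °C. All 8 values were above 0, with a mean of 2.00 ± 0.27 (SD, n = 8). R1 had a mean of 2.01 ± 0.23 with a range of 1.61 to 2.31. With the rDNA bins kept the means were 2.45 ± 0.91 and 2.41 ± 0.87.

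With rDNA bins left out, L4 was the most outward window on the left, ahead of L20 (1.63 ± 0.55, 48.9 kb from the rDNA). On the right R19, 54.9 kb from the rDNA, was at 2.20 ± 0.51 and R1 came next. Between these the mean direction alternated. All 8 wild type libraries were outward in 7 of 20 windows on the left and 8 of 23 on the right, and all were inward in 2 and 6 windows. In the remaining windows the libraries differed in sign, in some by polymerase. At L18 the wild type Pol delta libraries were inward (-0.65 to -0.11) and the Pol epsilon libraries outward (0.84 to 1.31). The cause was not tested, and a mean of such libraries does not show which way forks moved. The most inward window on the left was L22 (78001 to 81000), overlapping the dipeptide transporter gene SPCC757.13, at -1.75 ± 1.01 with a range of -3.58 to -0.051. The most inward on the right was R21 (2376901 to 2379900), over the acetyl-CoA ligase gene pcs60, at -1.67 ± 0.42 with a range of -2.39 to -1.14. The left extreme was much more variable between libraries than the right one.

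**Figure D1:**
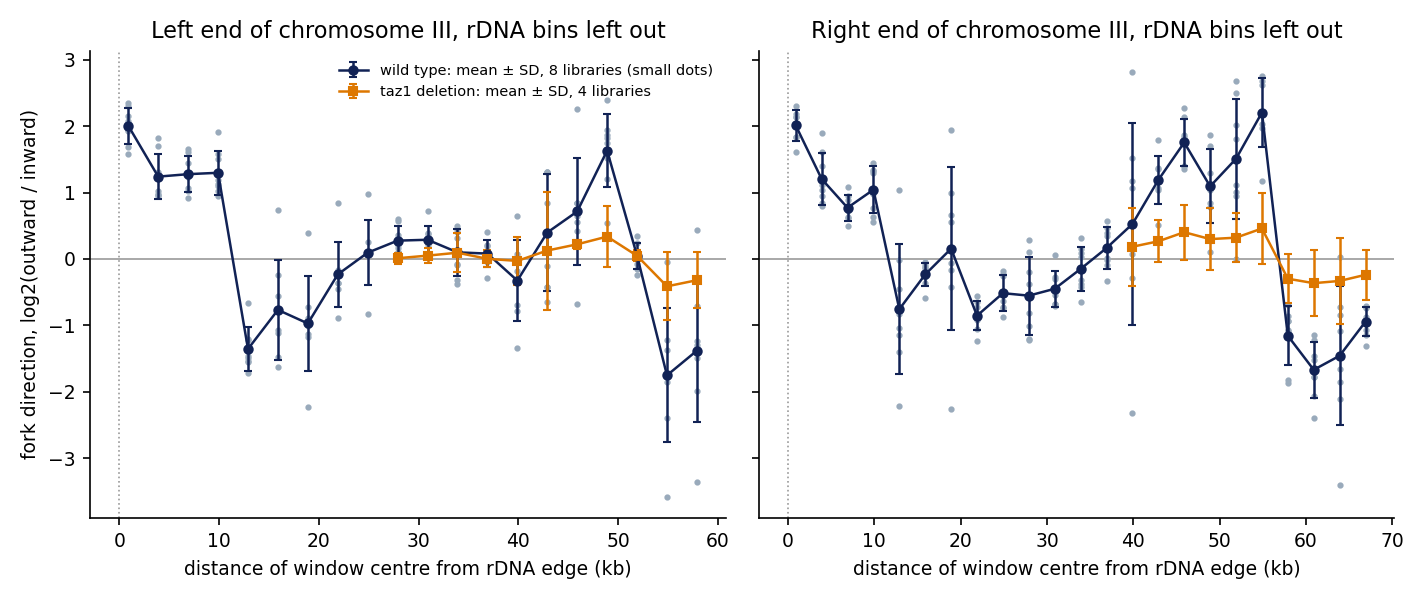
Fork direction (log2 ratio of outward to inward forks), rDNA bins left out, of each 3 kb window of the left and right chromosome III ends against the distance of its centre from the rDNA edge in kb, as mean ± SD for wild type and taz1 deletion with one dot per wild type library. Both arms were outward beside the rDNA, with wild type means of 2.00 and 2.01 in L4 and R1. Farther in the means alternated between outward and inward, and in many windows the wild type libraries differed in sign.

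Levels are the ends per bin on both strands as a multiple of the library's median bin, and outside the rDNA they stayed near it. In wild type the highest such window was L17, at the gene of the RNA-binding protein Rnc1, at 1.55 ± 0.19 (SD, n = 8). The lowest was R4 (2427901 to 2430900, SPCC569.03), at 0.84 ± 0.10, and on the left L7 (33001 to 36000, the pseudogene SPCP20C8.03), at 0.87 ± 0.089. On the right arm the highest was R14, at the sterol acyltransferase gene are2, at 1.26 ± 0.26. Windows with rDNA stood far above this, with L1 at 75.8 ± 48.4 and R1 at 4.10 ± 1.82.

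The level of the left rDNA bins was read within a replicate number, since replicates 1 and 2 had different references. It was 32.7 to 142 in replicate 1, with a median of 83.1, where the reference holds 35 rDNA bins, and 12.9 to 64.9 in replicate 2, with a median of 21.1, where it holds 128. Scaled for this, as ends in all rDNA bins of the reference expressed as a number of repeats of median level, the medians were 74.5 in replicate 1 (29.0 to 128) and 72.3 in replicate 2 (47.6 to 189), so the replicates overlapped. Ends in all rDNA bins made up 2.39 to 11.7% of a library. Within each condition and replicate, the Pol delta library was above the Pol epsilon library in 16 of 16 pairs. The labels list 1 strain for each genotype and polymerase, so these pairs repeat the same strains. Polymerase and strain cannot be told apart here. Their ratio ran from 1.03 (wild type 34 °C replicate 1, levels of 108.9 and 105.5) to 3.71 (stn1-226 25 °C replicate 2, 64.9 and 17.5). In the other left bins that ratio was 1.01 to 1.41. At 34 °C rif1 deletion was below wild type in 4 of 4 pairs of libraries with the same polymerase and replicate number, at 79.0 and 45.6 against 108.9 and 105.5 in replicate 1 and 16.3 and 12.9 against 30.6 and 24.8 in replicate 2, without overlap within a replicate. As repeats the ranges were 41.0 to 71.2 and 80.5 to 112. The windows made of rDNA, L1 to L3, changed by -0.94 to -0.77 on the log2 scale in that comparison and did not pass the test (edgeR adjusted p of 0.51 or above). In the other 5 comparisons of genotypes the groups overlapped within both replicates, with 2 or 3 of 4 pairs lower.

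**Figure D2:**
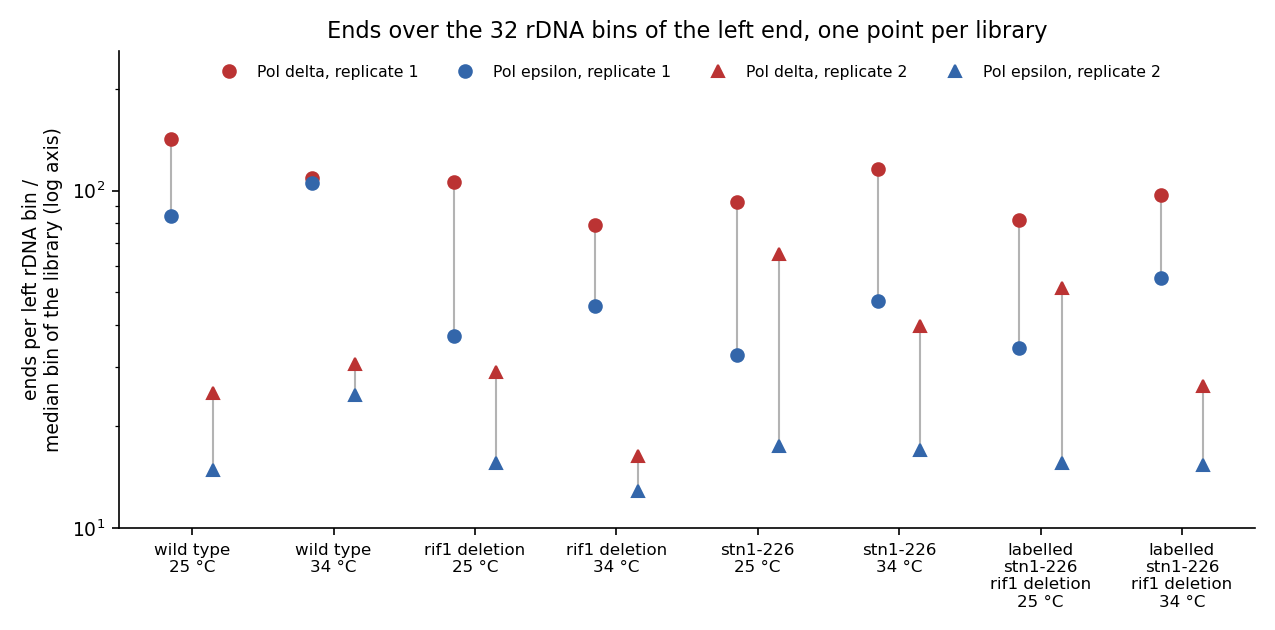
Level of the left rDNA bins (multiples of the library's median bin) in each library, by condition, polymerase and replicate. Replicate 1 lies between 32.7 and 142 and replicate 2 between 12.9 and 64.9, and Pol delta lies above Pol epsilon in 16 of 16 pairs. The pairs repeat the same strains, 1 for each genotype and polymerase.

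Total ends of the windows were then compared between genotypes to ask whether the rDNA-flanking sequence gains or loses ends. No window of the region passed edgeR's quasi-likelihood test with Benjamini-Hochberg adjustment in any of the 7 comparisons. For rif1 deletion minus wild type at 25 °C, 0 of 46 windows passed against 0.144% of all 4179 windows, with 15 of 46 at an unadjusted p under 0.05 (9 of them higher) and 5 called by DESeq2. For rif1 deletion at 34 °C, 0 of 46 passed against 0.0479% of all, with 5 unadjusted and 1 by DESeq2. For stn1-226 at 25 °C and 34 °C, 0 of 46 passed against 0.168% (0.0718% lower) and 0.311% of all, with 1 and 0 unadjusted and 0 by DESeq2. For the libraries labelled stn1-226 rif1 deletion minus stn1-226, 0 of 46 passed at each temperature against 0% and 0.0479% of all, and for taz1 deletion 0 of 21 against 0.487% (0.439% higher and 0.0487% lower), with 0 unadjusted and 0 by DESeq2 in these comparisons. No share of all windows is given for the unadjusted and DESeq2 counts, so they do not set the region apart.

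The window that came nearest was L4 at the left rDNA edge in rif1 deletion at 25 °C. Its levels were 25.4, 5.31, 10.4 and 1.92 in wild type and 6.76, 3.90, 4.54 and 1.10 in rif1 deletion, and every rif1 deletion library was below the wild type library of the same polymerase and replicate. The log2 change was -1.10 (SE 0.26, adjusted p = 0.093) and did not pass. At 34 °C the levels were 16.9, 6.21, 10.6 and 2.91 in wild type and 8.64, 3.15, 4.32 and 1.52 in rif1 deletion, a change of -1.05 (SE 0.26, adjusted p = 0.24). These ends lie mostly in the 2 rDNA bins of L4. In its other bins the level was 1.05 ± 0.12 and 1.01 ± 0.091 (SD, n = 4) in wild type at 25 °C and 34 °C and 0.84 ± 0.16 and 0.96 ± 0.096 in rif1 deletion. With all bins replicate 2 was below replicate 1 for each polymerase in all these groups, which overlap. DESeq2 called L4 at both temperatures. Without both wild type 25 °C replicate 2 libraries, edgeR called 3 windows of the region at 25 °C and 1 at 34 °C, L4 among them each time. The share of all windows called in that setting is not given here.

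In stn1-226 at 34 °C, 44 of 46 windows were below wild type by a small amount. The median change was -0.082 on the log2 scale against 0.0034 over all windows, and outside the rDNA it ran from -0.16 to 0.013. In rif1 deletion at 34 °C, 40 of 46 windows were below, with a median of -0.055 against 0.00053. No single window passed the test in either, as given above.

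To compare the whole ends, both strands were summed over each 70 kb end with the rDNA bins left out, a choice made after the rDNA levels were seen. The left end of chromosome III had levels of 1.16, 1.16, 1.05 and 0.94 in wild type at 34 °C and 1.10, 1.11, 0.95 and 0.92 in stn1-226 at 34 °C. The right end had 1.12, 1.08, 1.08 and 0.95 in wild type and 1.08, 1.04, 0.99 and 0.93 in stn1-226. The changes were -0.078 (SE 0.035, 95% interval -0.15 to -0.010, unadjusted p = 0.034, edgeR adjusted p = 0.75) and -0.068 (SE 0.042, interval -0.15 to 0.013, adjusted p = 0.96). Neither end passed, although stn1-226 was lower in each matched pair. In this comparison 2.26% of the 177 segments of the genome passed.

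Chromosomes I and II changed by more at their ends. In stn1-226 at 34 °C the left end of chromosome I fell by 0.35 (adjusted p = 0.00011), its right end by 0.21 (0.041) and the right end of chromosome II by 0.64 (1.3e-05), whereas the left end of chromosome II changed by -0.14 (0.66). The right end of chromosome II had levels of 1.88, 1.80, 2.38 and 2.26 in wild type and 1.30, 1.54, 1.17 and 1.32 in stn1-226, groups that do not overlap. The change of the left chromosome III end was above that of the summed terminal segments of chromosomes I and II by 0.29 (95% interval 0.20 to 0.39, edgeR adjusted p = 3.2e-08), and that of the right end by 0.30 (0.20 to 0.41, 2.0e-07). The same difference passed for 100% of the 173 segments tested, with a median of 0.38, and 172 and 170 of them were at or above the values of the left and right end. By this measure both chromosome III ends differed from those summed terminal segments, as every other segment did, and they were among the lowest of the 173.

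**Figure D3:**
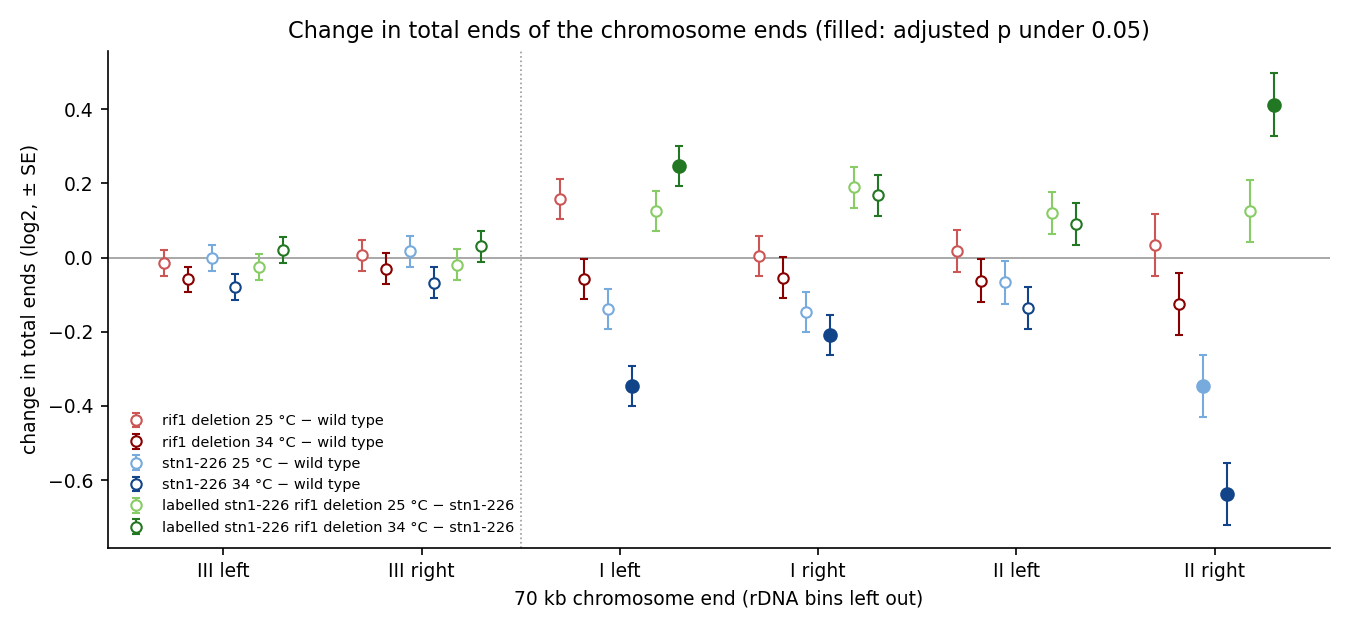
Change in total ends (log2, ± SE) of each 70 kb chromosome end, rDNA bins left out, in 6 comparisons. Filled points passed the edgeR test; no point of the chromosome III ends is filled, and in stn1-226 at 34 °C the right end of chromosome II is at -0.64 where the chromosome III ends are at -0.078 and -0.068.

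In the other comparisons the chromosome III ends changed by -0.059 to 0.030, rDNA left out, and none passed. For the libraries labelled stn1-226 rif1 deletion minus stn1-226 at 34 °C, the left end changed by 0.020 (95% interval -0.048 to 0.088) and the right end by 0.030 (-0.052 to 0.11), while the left end of chromosome I rose by 0.25 (adjusted p = 0.014) and the right end of chromosome II by 0.41 (0.011). For taz1 deletion, whose files cover only the inner bins of both chromosome III ends, these ends changed by -0.012 and -0.013. The right end of chromosome II, which the files cover in full, rose by 0.70 (adjusted p = 7.0e-07). Like parts of the ends were therefore not compared, and the outer bins of the chromosome III ends were not tested. The change of stn1-226 at 34 °C less that at 25 °C was -0.077 (95% interval -0.17 to 0.019) on the left and -0.085 (-0.20 to 0.030) on the right. Neither difference passed the test.

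Fork direction was compared next, to ask where forks took another course. In the comparisons of the libraries with and without a labelled rif1 deletion, 11 of 46 windows changed in at least one, 20 calls in all, and every call was a fall toward inward forks. The share of all windows that changed in at least one, or in all 4, is not given, so these counts do not set the region apart. In rif1 deletion 3 of 46 windows fell and 0 rose at 25 °C, where 11% of all windows fell and 10.2% rose (21.2% in all). At 34 °C 4 fell and 0 rose, where 9.79% of all fell and 8.45% rose (18.2%). In the libraries labelled stn1-226 rif1 deletion, against stn1-226, 5 fell and 0 rose at 25 °C, where 11.7% of all fell and 9.69% rose (21.3%). At 34 °C 8 fell and 0 rose, where 8.66% of all fell and 8.57% rose (17.2%). The counts of falls are near or below the share of all windows that fell, apart from the last, which was 3 to 5 when any one of its 8 libraries was left out. No share of all windows is given for those settings. The median change of the region was -0.12, -0.21, -0.24 and -0.25 in the order given, against -0.027, -0.028, -0.021 and -0.029 over all windows.

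The calls that recurred near the rDNA lie on the right arm, in R3 and R4. R4 (2427901 to 2430900), which overlaps SPCC569.03, passed in 4 of 4 comparisons, for which no share of all windows is given. Its direction was 0.99, 0.56, 1.33 and 1.30 in wild type at 25 °C and 0.12, 0.18, 0.82 and 1.01 in rif1 deletion, where the groups overlap but each library is below its match. The change was -0.51 (SE 0.13, edgeR adjusted p = 0.0089). At 34 °C it was 0.63, 0.76, 1.33 and 1.44 in wild type and 0.0021, 0.21, 1.02 and 0.66 in rif1 deletion, a change of -0.57 (adjusted p = 0.0048). Both replicate 2 libraries of rif1 deletion at 34 °C had flat fork direction over all windows. Its SD was 0.81 in each, against 1.08 (Pol delta) and 1.53 (Pol epsilon) in wild type. What this adds to the calls of that comparison (R3, R4, L6 and L7) was not tested. In the labelled stn1-226 rif1 deletion libraries R4 had 0.37, 0.21, 0.28 and 0.58 at 25 °C against 0.76, 0.88, 0.95 and 1.13 in stn1-226, and these groups do not overlap. The changes were -0.56 (adjusted p = 0.0048) at 25 °C and -0.50 (0.012) at 34 °C. R4 thus stayed outward on average in all 4 conditions but less so.

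R3 (2430901 to 2433900), at the inner edge of the block and over SPCC569.02C, passed in 3 comparisons. At 34 °C it was 1.08, 0.72, 0.88 and 0.77 in wild type and 0.40, 0.46, 0.38 and 0.24 in rif1 deletion, without overlap, a change of -0.50 (adjusted p = 0.0031). It was 1.07, 0.95, 0.76 and 0.71 in stn1-226 at 34 °C and 0.48, 0.40, 0.20 and 0.040 in the labelled stn1-226 rif1 deletion, also without overlap, a change of -0.59 (adjusted p = 0.00063). At 25 °C the second comparison gave -0.46 (0.0044), and rif1 deletion against wild type gave -0.10 (0.60), which did not pass.

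Among the windows that passed in these comparisons, the largest falls were at R9 and R8, 24.9 and 21.9 kb from the rDNA, over the purine synthesis gene ade5 and the aromatic aminotransferase gene SPCC569.07. R9 (2412901 to 2415900) was inward already in stn1-226 at 25 °C, at -0.93, -1.26, -1.01 and -0.72, and was -1.33, -1.72, -2.19 and -2.17 in the labelled stn1-226 rif1 deletion. The change was -0.86 (SE 0.16, adjusted p = 0.00040), and the groups do not overlap. At 34 °C it went from -0.21, -0.21, -0.54 and -0.59 to -0.85, -0.77, -1.30 and -1.82, a change of -0.80 (adjusted p = 0.00087). In rif1 deletion against wild type R9 changed by -0.36 (adjusted p = 0.12) at 25 °C and -0.38 (0.098) at 34 °C, which did not pass. R8 (2415901 to 2418900) passed only in the same pair of comparisons, with -0.56 (adjusted p = 0.0070) at 25 °C and -0.65 (0.0023) at 34 °C. Larger changes than that of R8 that did not pass were -0.76 (adjusted p = 0.065) at L11 in rif1 deletion at 25 °C and -0.73 (0.051) at R10 in the labelled stn1-226 rif1 deletion at 34 °C. R11, R12 and R2 passed in 1 to 2 of the labelled stn1-226 rif1 deletion comparisons with changes of -0.51 to -0.39, and leaving out 1 library at a time kept the calls of R2 in 0, of R11 in 1 and of R12 in 3 or 6 of 8 settings. R2 lies in the block, R11 at the ankyrin repeat gene dhm1 and R12 at the splicing factor gene cwf18.

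On the left arm the calls were L13, over the transcription factor gene SPCC757.04, and L14, L6 and L7. L13 (51001 to 54000) was outward in wild type at 25 °C at 0.10, 0.58, 0.61 and 0.17 and inward in rif1 deletion at -0.26, -0.30, -0.14 and -0.21, a change of -0.59 (SE 0.17, adjusted p = 0.017) without overlap. This call was kept in 4 of the 8 settings that leave out 1 library. L13 also passed in the labelled stn1-226 rif1 deletion at 34 °C (-0.53, adjusted p = 0.034), a call kept in 0 of 8 such settings (adjusted p of 0.051 to 0.14). L14 changed by -0.51 in rif1 deletion at 25 °C (adjusted p = 0.0498), and did not pass without both wild type 25 °C replicate 2 libraries (-0.58, adjusted p = 0.072). Nearer the rDNA, L6, whose outer 3 bins lie in the block, and L7 beyond it changed by -0.52 (0.012) and -0.48 (0.033) in rif1 deletion at 34 °C. These calls were kept in 5 and 4 of 8 such settings and did not pass with limma. L6 had 1.61, 1.25, 1.23 and 1.45 in wild type and 1.18, 0.75, 0.90 and 0.65 in rif1 deletion, and these groups do not overlap.

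**Figure D4:**
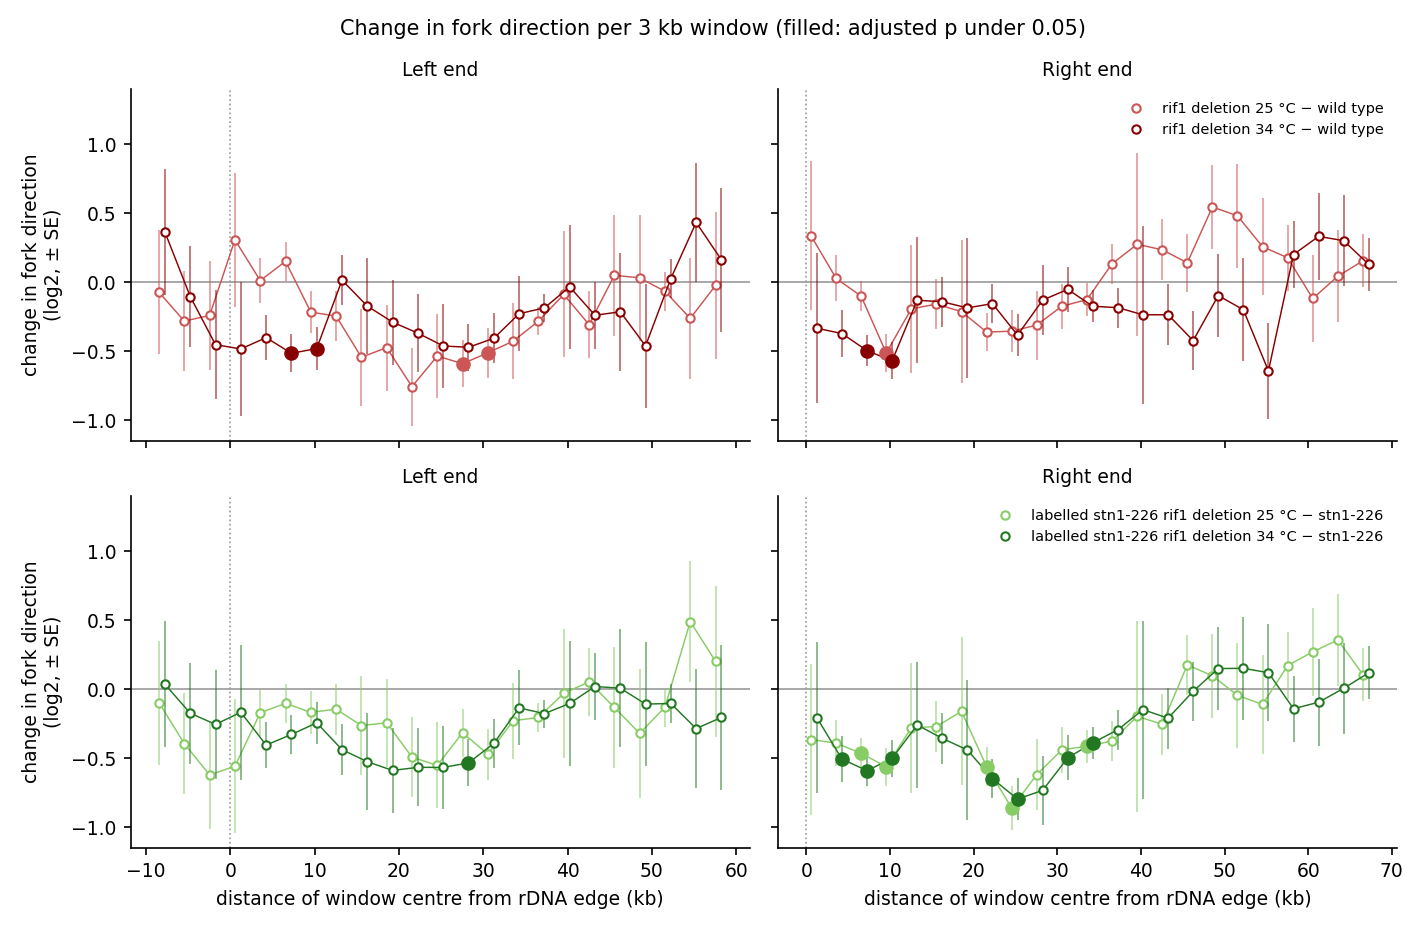
Change in fork direction (log2, ± SE) per 3 kb window against distance from the rDNA edge in kb, for rif1 deletion minus wild type and for the libraries labelled stn1-226 rif1 deletion minus stn1-226. Filled points passed the edgeR test at an adjusted p under 0.05; all 20 of them lie below 0, the lowest at R9 (-0.86).

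Matched libraries share polymerase and replicate number, and their references had the same length on chromosome III. On chromosome II the wild type 25 °C replicate 2 libraries had 15143 bins, against 15133 in rif1 deletion 25 °C replicate 2. The replicate numbers themselves were not found to pair libraries throughout, and some libraries at 25 °C went with those of the other number. Of the 20 calls, 19 were lower in all 4 matched pairs and 1 (R8 at 25 °C) in 3. The calls were picked from these same libraries, so these counts describe them and add no further support. Leaving out each of 8 libraries in turn kept 8 calls, R3 and R4 in rif1 deletion at 34 °C and R9, R3 and R4 at 25 °C and R3, R9 and R8 at 34 °C in the labelled stn1-226 rif1 deletion, and the other 12 were lost without at least one library. Over the left end with rDNA bins left out the direction fell in all 4 comparisons, by 0.25 (adjusted p = 0.00014), 0.21 (0.00066), 0.14 (0.017) and 0.22 (0.00061), in the order above. The right end changed by -0.018, -0.15, -0.20 and -0.23 and did not pass (adjusted p of 0.067 or above). With the rDNA bins kept, neither end passed. Without rDNA, 20.3%, 16.9%, 19.8% and 15.3% of all segments fell.

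In stn1-226 against wild type, fork direction passed in 0 of 46 windows at 25 °C and at 34 °C (edgeR, 0% of all windows, 2 and 0 windows at an unadjusted p under 0.05, and 0 by limma). The median change was -0.022 at 25 °C and 0.031 at 34 °C, and at 34 °C outside the rDNA it ran from -0.15 to 0.21. The difference between the changes at both temperatures passed in 0 of 46 windows for rif1 deletion and for stn1-226 (edgeR; 0% of all windows, of which 97 had an unadjusted p under 0.05 in each; not computed with limma).

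The taz1 deletion libraries showed flatter fork direction. Their direction over all windows had an SD of 0.27 to 0.57, against 0.81 to 2.03 in the other libraries. In the 21 covered windows all were nearer 0 than the wild type mean of 25 °C and 34 °C, and 12 passed, 6 up and 6 down, where 62.1% of all windows passed (30.2% rose and 31.9% fell). The smallest adjusted p was at R16, over the gene of the kinase Ppk38, with 0.29, -0.11, 0.55 and 0.87 in taz1 deletion and wild type libraries between 1.36 and 2.27. The change was -1.35 (adjusted p = 2.3e-06), and no library overlaps. R19, at vms1, had 0.66, -0.27, 0.43 and 1.01 against 1.18 to 2.75, a change of -1.75 (5.2e-05). R21, at pcs60, rose from between -2.39 and -1.14 to -0.32, 0.31, -0.62 and -0.83, a change of 1.30 (0.00025). Of the others, R15 (pal1, -0.92), R18 (hom2, -1.19), R20 (pcs60, 0.86), R22 (utp25, 1.12) and R23 (pof7, 0.70) were next by adjusted p (at most 0.0024). These windows lie on the right arm, and L20, L22 and L23 passed on the left. With each library's ratios scaled by its own SD, limma called only 2 of the 21, R16 and R19.

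Sites where forks part were taken as local maxima of the initiation step. This step is a log2 ratio in which ends of forks that leave a site are divided by ends of forks that approach it, over 10 bins to each side. Of 540 such sites, 7 lie in the region. In wild type the left ones were at 25501 (2.03 ± 1.02, SD, n = 8, rank 70 of 540), at 35401 near new22 (1.38 ± 0.28, rank 210) and at 76501 near SPCC757.13 (1.86 ± 0.36, rank 113). On the right they were at 2382301 near vms1 (2.01 ± 0.52, rank 74), at 2419501 near SPCC569.06 (0.57 ± 0.67, rank 414), at 2428501 near SPCC569.05C (0.89 ± 0.56, rank 311) and at 2437201 near SPCC569.01C (1.54 ± 0.66, rank 177). The sites at 25501 and 2437201 lie in the inverted block, in which the left copy of the second is 1113 bp from the first, and their flanks hold 7 and 3 rDNA bins. With the rDNA bins left out their wild type steps were -0.52 ± 0.47 and 0.035 ± 0.37 (SD, n = 8), so both rest on ends in the rDNA. Without them the highest step on each arm was that at 76501 and at 2382301. The bins beside the 7 sites have a median of 74.3% A and T, against 75% for all sites and 66.3% over all bin boundaries, and a run of at least 12 A or T bases stands beside each of them.

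The steps were then compared between genotypes. No site of the region passed in the 6 comparisons without taz1 deletion (edgeR; 0 of 7 in each, against 8.52%, 7.22%, 0%, 0%, 7.59% and 7.22% of all sites for rif1 deletion, stn1-226 and the labelled stn1-226 rif1 deletion at 25 °C and 34 °C), and limma called 0 as well. At an unadjusted p under 0.05 there were 0, 3, 0, 0, 0 and 0 sites. In rif1 deletion at 34 °C all 7 changes were below 0, from -0.50 to -0.041, with a median of -0.33 against -0.24 over all sites, and the lowest adjusted p was 0.090, at 35401. Both replicate 2 libraries of that condition had flat fork direction over all windows. Its SD was 0.81 in each, against 1.08 (Pol delta) and 1.53 (Pol epsilon) in wild type 34 °C replicate 2. What this adds to the lower steps was not tested. These counts include both sites that rest on the rDNA.

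In taz1 deletion, which covers the pair of sites at 76501 and 2382301, both steps fell. They were 0.78, -0.11, 0.12 and 0.68 at 76501, against 1.34 to 2.51 in wild type, and 0.28, -0.47, 0.67 and 1.19 at 2382301, against 1.41 to 2.82, so neither overlaps. The changes were -1.49 (SE 0.19, adjusted p = 4.3e-07) and -1.59 (SE 0.20, 4.8e-07). Of all 522 sites covered, 435 fell (83.3%), with a median of -0.83.

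**Figure D5:**
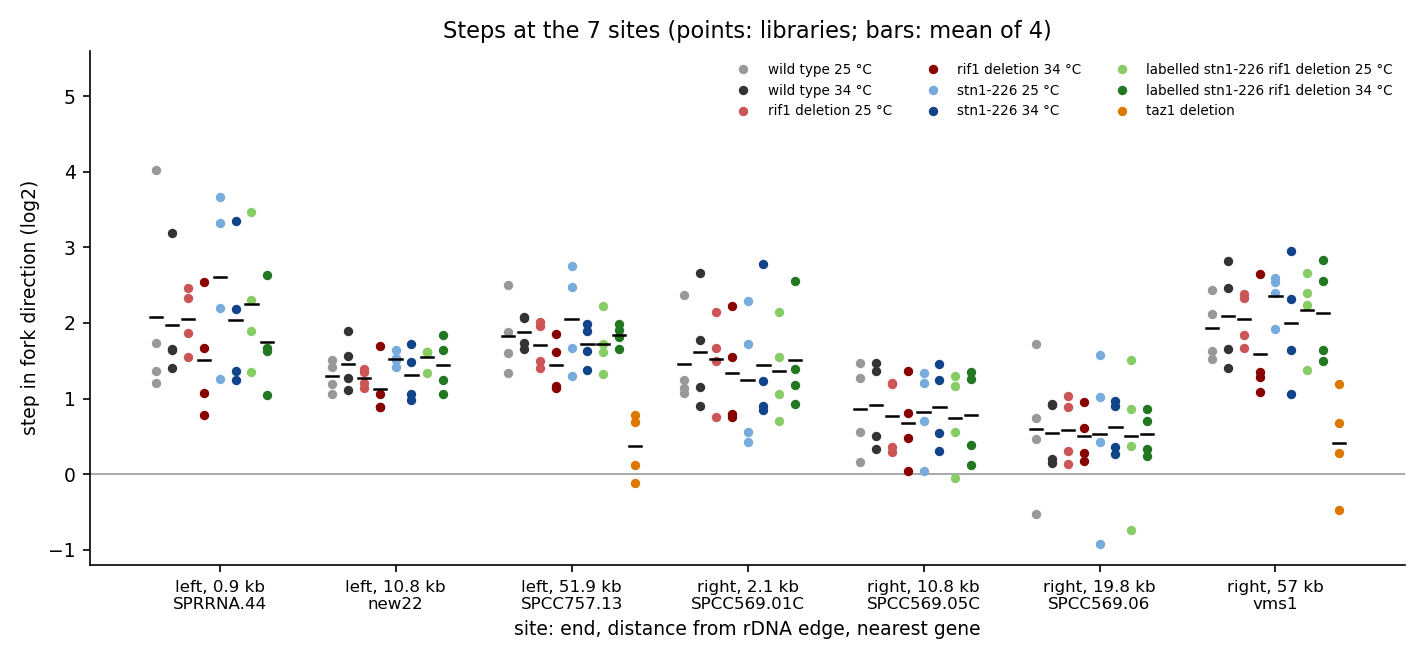
Initiation step (log2) at the 7 sites of the region, rDNA bins included, one point per library, by condition. The wild type means run from 0.57 to 2.03, those at 25501 and 2437201 rest on rDNA bins, and the taz1 deletion libraries at 76501 and 2382301 lie below all wild type libraries.

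The gene groups of the region were read through the windows they lie in. The 6 membrane transporter genes other than hexose transporters lie in 9 windows, of which 1 (R4) fell in direction in each of the 4 labelled rif1 comparisons, where 11%, 9.79%, 11.7% and 8.66% of all windows fell. R4 starts at 2427901 and holds only the tip of the transporter gene SPCC569.05C, which ends at 2427995. Of the 4 transporter windows covered by taz1 deletion 2 rose, where 30.2% of all did. These counts are near the shares of all windows. The 4 genes of families repeated at chromosome ends (SPCP20C8.01C, SPCP20C8.02C, SPCC569.01C and SPCC569.02C) lie in 4 windows, of which 0, 2, 1 and 2 fell in the same 4 comparisons, read against the same shares. The 3 rRNA genes and the 1 tRNA gene lie in windows that passed in none. No hexose transporter gene lies in the region. In total ends 0 windows of these groups passed.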

How the data were processed

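Fragment ends per 300 bp bin and strand were deposited by the authors as whole-number counts, not normalised, in 72 files. Reads were aligned with Bowtie2 per the submitters' processing notes; version and build: not given in the sources used here. Bins were placed on RefSeq ASM294v3 by offset; the best offset lay within 300 bp of the one used in all 36 libraries. Ends were summed in windows of 3 kb, in 70 kb segments and at sites, keeping those with a mean of at least 10 ends. Tests were edgeR 4.0.16 quasi-likelihood tests (R 4.3.3) over all windows, segments or sites, with the replicate number as a covariate, and each contrast averaged the differences of both polymerases. P-values were Benjamini-Hochberg adjusted with a threshold of 0.05, and all groups shared one estimate of the spread. Alternatives used DESeq2 1.42.0, limma 3.58.1, other windows and libraries left out. Levels were computed in Python 3.11.15 with pandas 2.3.3 and numpy 2.4.6, and plotted with matplotlib 3.10.9. On data simulated for stn1-226 minus wild type at 34 °C (2000 windows), edgeR recovered 67 of 67 windows with a log2 change of 0.6 in total ends, and 4 of 67 in fork direction. The windows named were, per comparison, up to 4 in each direction with the smallest adjusted p, the wild type extremes, every site and the 5 genes nearest the rDNA on each side; R2, R10, R11, R12, L11, L13 in its second comparison and L20 and L23 in taz1 deletion were named after their values were seen. The members, lists and tests were chosen with earlier results of these data known. Replicates of a group differed by more than counting error (chi-square per degree of freedom 10.9 to 128 over 18 groups), so none was a library deposited again.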

Additional observations from a re-analysis of the deposited data

Results flagged for a closer look

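Among 94 groups of 4 libraries examined, 4 had a library that stood apart from the other 3 by Dixon's criterion, where chance gives about 1 in 20 groups. At 25501, where 7 bins of the flanks are rDNA, wild type 34 °C Pol delta replicate 1 had an initiation step of 3.19, against 1.41 to 1.65 in the other 3 libraries. At 2437201, with 3 such bins, wild type 25 °C Pol delta replicate 1 had 2.38, against 1.07 to 1.25. At 2382301, rif1 deletion 34 °C Pol epsilon replicate 1 had 2.65, against 1.08 to 1.35. At 35401, the library labelled stn1-226 rif1 deletion 25 °C Pol delta replicate 2 had 1.34, against 1.61 to 1.62.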

How the results depend on the processing

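Among the alternatives that leave out no single library, 218 values and counts for the comparisons and 93 for named windows and sites kept their direction and, where tested, their side of the threshold, and those that did not are given here. Where a value moved, the cause was not tested. Counts of windows called in total ends for rif1 deletion were 5 (25 °C) and 1 (34 °C) with DESeq2, and 3 and 1 without both wild type 25 °C replicate 2 libraries, against 0 in each. In fork direction, limma on scaled ratios called 5 windows for rif1 deletion at 25 °C (3 with edgeR) and 2 for taz1 deletion (12). Windows of 1.5 kb, which are more numerous than those of 3 kb, gave 25 for taz1 deletion. Shares of all windows are not given for these counts. In all, 10 taz1 deletion windows, with L6 and L7 of rif1 deletion at 34 °C, missed the threshold under limma.

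With rDNA bins kept, the left end's total ends changed by -0.74 for rif1 deletion at 34 °C without both wild type 25 °C replicate 2 libraries and then passed. With rDNA bins left out and all libraries kept, this end did not pass. Leaving out rDNA bins, or keeping distinct bins only, was chosen after seeing the data. Without rDNA bins the wild type steps at 25501 and 2437201 were -0.52 and 0.035. It turned small, uncalled changes of total ends: for rif1 deletion at 25 °C to 0.0095 (left, distinct bins), 0.0058 and 0.029 (right, both settings), for stn1-226 at 25 °C to 0.017 and 0.020 (right), for the labelled stn1-226 rif1 deletion to -0.019 and -0.022 (right, 25 °C) and 0.020 and 0.013 (left, 34 °C). With rDNA bins kept, the right end for rif1 deletion at 25 °C was 0.0044 without TMM and 0.021 without both wild type 25 °C replicate 2 libraries. The left end's fork direction, with rDNA bins left out and with distinct bins only, passed for rif1 deletion at 25 °C (-0.25 and -0.25) and 34 °C (-0.21 and -0.19, turned from above 0), and for the labelled stn1-226 rif1 deletion at 25 °C (-0.14 and -0.16) and 34 °C (-0.22 and -0.23). For stn1-226 at 25 °C it turned to -0.080 and -0.095, and, with rDNA bins kept, to -0.059 without both wild type 25 °C replicate 2 libraries. With rDNA bins kept, limma gave 0.085 on the left and 0.024 on the right for rif1 deletion at 25 °C. The right end was then 0.025 without both wild type 25 °C replicate 2 libraries, and 0.0084 with distinct bins only.

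Leaving out one replicate at a time gave these ranges, and shares of all windows or sites are not given for the counts. Windows called in total ends were 0 to 6 for rif1 deletion at 25 °C and 0 at 34 °C. Windows called in fork direction were 1 to 4 for rif1 deletion at 25 °C, 2 to 5 at 34 °C, and 3 to 5 for the labelled stn1-226 rif1 deletion at 34 °C (8 with all libraries, and 8 without both wild type 25 °C replicate 2 libraries), where L13 and R2 passed in 0 of 8 settings. Sites called for rif1 deletion at 34 °C were 0 to 3. Of these, 6 windows in total ends came without rif1 deletion 25 °C Pol epsilon replicate 1, 2 without wild type 25 °C Pol delta replicate 2 and 1 without wild type 25 °C Pol epsilon replicate 2. In fork direction 1 window was left without wild type 25 °C Pol epsilon replicate 1, rif1 deletion 25 °C Pol delta replicate 2 or rif1 deletion 25 °C Pol epsilon replicate 2, and 2 at 34 °C without wild type Pol epsilon replicate 2. Sites called were 1 without wild type 34 °C Pol epsilon replicate 1 and 3 without rif1 deletion 34 °C Pol epsilon replicate 1. Total ends of the left end, rDNA included, ran from -0.86 to -0.62 for rif1 deletion at 34 °C, from -0.31 to 0.074 for stn1-226 at 25 °C (-0.46 without both wild type 25 °C replicate 2 libraries), from -0.29 to 0.077 for the labelled stn1-226 rif1 deletion at 25 °C and from -0.025 to 0.0021 for taz1 deletion. Those of the right end ran from -0.078 to 0.037 for rif1 deletion at 25 °C, from -0.055 to 0.074 and from -0.0019 to 0.035 for the labelled stn1-226 rif1 deletion at 25 °C and 34 °C, and from -0.035 to 0.012 for taz1 deletion. The falls in fork direction of the left end with rDNA bins left out were not refitted without single libraries. With rDNA bins kept, fork direction of the left end ran from -0.25 to 0.20 and from -0.27 to 0.33 for rif1 deletion (25 °C, then 34 °C), from -0.15 to 0.30 and from -0.13 to 0.39 for stn1-226, from -0.39 to 0.12 for the labelled stn1-226 rif1 deletion at 34 °C and from -0.0025 to 0.057 for taz1 deletion. That of the right end ran from -0.082 to 0.071 for rif1 deletion at 25 °C, from -0.24 to 0.00040 and from -0.10 to 0.034 for stn1-226 at 25 °C and 34 °C, and from -0.30 to -0.058 for the labelled stn1-226 rif1 deletion at 25 °C. In the last it passed without stn1-226 25 °C Pol epsilon replicate 1 (-0.30) or the labelled stn1-226 rif1 deletion 25 °C Pol epsilon replicate 2 (-0.30).

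Replicate numbers did not pair the libraries throughout: deviations of same-numbered libraries correlated over 120 pairs of groups at a median r of 0.076 in total ends (-0.72 to 0.91) and 0.075 in fork direction (-0.89 to 0.89), with 58 over 0.1 in each. Some libraries went with the other number. In Pol delta at 25 °C, R14 was -2.32 and 0.079 (replicates 1 and 2) in wild type and 0.25 and -2.88 in stn1-226. It was 0.42 and -2.54 in the labelled stn1-226 rif1 deletion. The replicate covariate does not hold such links, whose cause was not tested. Without the replicate block, 9 windows in place of 8 passed in fork direction for the labelled stn1-226 rif1 deletion at 34 °C, and no other count of calls changed.

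The spread between libraries and their depth were not told apart as limits of the calls, and replicates differed by more than counting error. In simulated counts of stn1-226 at 34 °C, 21 of 67 windows with a log2 change of 0.3 in total ends were recovered, and 0 of 67 in fork direction, so changes of direction of that size were not detected there. In the data R12 passed in the labelled stn1-226 rif1 deletion at -0.41 (25 °C) and -0.39 (34 °C). The simulation therefore sets no limit for the other comparisons. Reads of the inverted block and the rDNA cannot be placed on one arm or one repeat.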
